A study of Rattus norvegicus with 9 samples.

Results

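Spleen gene expression was compared between rats that received thioacetamide together with celecoxib (TAA+celecoxib) and control rats, over every gene that passed a standard filter on low counts: 15954 genes of the 34408 in the file. The comparison uses 6 of the study's 9 RNA sequencing libraries, 3 per group, and the other 3 come from rats given TAA without celecoxib. Every rat carried the label WT. TAA damages the liver and is used to make rodents cirrhotic. It was given by intraperitoneal injection every 3 days, at a dose of 200 mg/kg over a first period of 8 weeks and 100 mg/kg over a last period of 8 weeks. Celecoxib, an inhibitor of the inducible cyclooxygenase encoded by Ptgs2, was given at 20 mg/kg per day in the last 8 weeks. The controls are labelled only as control, with no vehicle, strain, age, sex or hour of collection. TAA and celecoxib differ together between these groups, so the part of each cannot be told apart here, and the TAA libraries are given beside the results as values only. They share the controls with the comparison. Nothing in the labels states that the libraries came from separate animals, so p-values measure the spread between these libraries, which may be technical.

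The spleen filters blood. Its red pulp holds macrophages that take up old red cells and, in rodents, also sites of blood cell production, where red cell and granulocyte precursors mature; its white pulp holds B and T lymphocytes. Cirrhosis raises pressure in the portal vein, which drains the spleen, and enlarges the organ. Cyclooxygenases make the precursor of the prostaglandins and of thromboxane.

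The libraries held 16848246, 17530220 and 16657664 counts in the controls and 16672254, 14887149 and 17072321 in the TAA+celecoxib group, so that 1 count was worth 0.0556 to 0.0701 CPM (counts relative to the library's size, with TMM factors). Of the markers of spleen cells, the red pulp macrophage factor Spic was present in each of the 6 libraries, at 64.2, 144 and 106 CPM in the controls and 59.1, 132 and 121 in the TAA+celecoxib libraries. The libraries numbered 1 of each group stood apart. On the first principal component, with 31.3% of the variance over the 9 libraries, control 1 lay at -63.2 and TAA+celecoxib 1 at -60.3, whereas the other 7 lay between -1.73 and 50.1. Both were low in red pulp and marginal zone macrophage transcripts, with list scores (mean log2 CPM of the tested members) of 6.32, 7.42 and 7.38 in the controls and 5.85, 7.43 and 7.35 in the TAA+celecoxib group. TAA+celecoxib 2 had the most haemoglobin transcripts of the 9 libraries, 5.34% of its counts against 0.840% to 3.76% in the others. Values below are given for replicates 1, 2 and 3 in that order.

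No gene passed the test. edgeR's quasi-likelihood test called 0 of 15954 genes (0%) at a Benjamini-Hochberg adjusted p under 0.05, and the smallest adjusted p was 0.566. At an unadjusted edgeR p under 0.05 there were 803 genes (5.03%), 472 higher in the TAA+celecoxib group (2.96%) and 331 lower (2.07%). In 1545 genes (9.68%) the values of the 3 TAA+celecoxib libraries did not overlap those of the 3 controls, 840 higher (5.27%) and 705 lower (4.42%). Fitted values were higher for 8004 genes (50.2%) and lower for 7950 (49.8%), with a median log2 fold change of 0.0012. For 10184 genes (63.8%) the 95% interval of the log2 fold change lay between -1 and 1, so a change beyond 2-fold in either direction was outside the interval. The median width of the interval was 1.11 on the log2 scale. Apart from 3 genes with copies described at the end, each gene named below with an interval had an edgeR adjusted p of 0.911 or more. limma-voom also called 0 genes, with 631 at an unadjusted p under 0.05, while DESeq2 called 27 of 15903 (0.170%), 15 higher (0.0943%) and 12 lower (0.0755%). The count at an unadjusted p under 0.05 fell to 350 when TAA+celecoxib 2 was left out and to 363 when control 2 was, and rose to 1303 when TAA+celecoxib 1 was. With the replicate number as a block in the 6 libraries it was also 1545 (9.95% of 15523 tested), 732 higher (4.72%) and 813 lower (5.24%), and edgeR still called 0.

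Genes were then read in lists by cell type and process. The largest medians of the lists with at least 8 tested members belonged to erythroid cells (2.27 on the log2 scale) and granulocyte precursors (2.16), and the lowest to heat shock proteins (-0.39). edgeR called 0 members of any list.

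**Figure D1:**
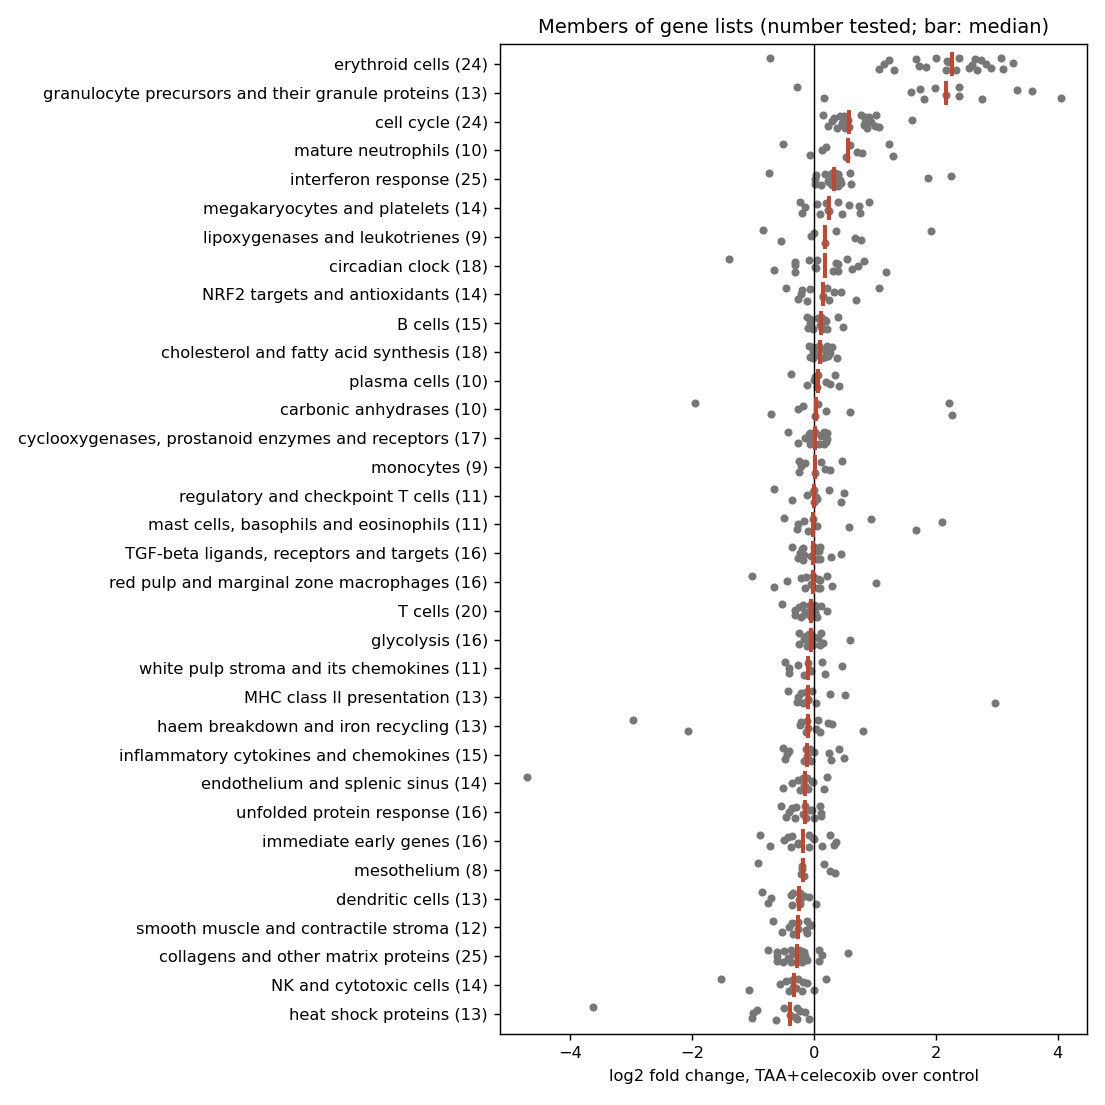
Log2 fold change of TAA+celecoxib over control (x axis, edgeR) for each tested member of a gene list (grey points), with the list's median as a red bar and the number tested in brackets; lists with at least 8 tested members are drawn. Erythroid cells and granulocyte precursors have the highest medians, 2.27 and 2.16, against a median of 0.0012 over all 15954 genes.

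Transcripts of granulocyte precursors were higher in the TAA+celecoxib libraries for most members tested. These cells, the promyelocytes and myelocytes that become neutrophils, make the enzymes and antimicrobial peptides stored in neutrophil granules. Of 14 listed genes 13 were tested, and 11 of them were higher in every TAA+celecoxib library than in every control, where 5.27% of all genes were. The same 11 had an unadjusted edgeR p under 0.05 (2.96% of all genes on the higher side), and none of the 13 passed after adjustment. The median log2 fold change was 2.16, and it stayed between 1.61 and 2.67 over 19 alternative settings, with the lowest value without TAA+celecoxib 2. In a spleen sample, more cells of a type and more RNA per cell cannot be told apart.

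Camp encodes cathelicidin, an antimicrobial peptide precursor of the specific granules (chr8:117930546-117932518 in the file's coordinates, whose build is unresolved). Its level was 5.36, 8.78 and 7.57 CPM in the controls and 28.4, 21.5 and 15.7 in the TAA+celecoxib libraries. The log2 fold change was 1.59 (SE 0.34, 95% interval 0.82 to 2.36, edgeR adjusted p = 0.911), and DESeq2 called it with an adjusted p of 0.0108. Every treated library was thus above every control, with a gap between the groups wider than the spread of the controls. Ngp, a neutrophil granule protein gene (chr8:118662335-118665699), was at 2.03, 12.01 and 5.92 CPM in the controls and 24.1, 42.5 and 22.8 in the TAA+celecoxib libraries, a log2 fold change of 2.16 (SE 0.55, 95% interval 0.90 to 3.41, edgeR adjusted p = 0.911). Mpo, the myeloperoxidase of the azurophil granules (chr10:75087892-75098260), was at 4.32, 10.5 and 11.95 and 33.6, 209.6 and 26.7 CPM, a log2 fold change of 3.33 (SE 0.97, 95% interval 1.13 to 5.52, edgeR adjusted p = 0.911). Its value in TAA+celecoxib 2 was several times that of the other treated libraries and of the controls, but replicates 1 and 3 also lay above the controls.

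The serine proteases of the same granules showed the same separation. Elane, neutrophil elastase, was at 0.7398, 2.78 and 2.96 CPM in the controls and 7.596, 12.4 and 5.92 in the TAA+celecoxib libraries (1.99 on the log2 scale, 95% interval 0.25 to 3.73). Ctsg, cathepsin G, was at 2.71, 5.06 and 2.902 and 11.7, 35.98 and 8.35 CPM (2.38, 95% interval 0.72 to 4.05). Prtn3, proteinase 3, was at 1.29, 3.61 and 0.911 and 14.6, 10.5 and 5.3003 CPM (2.37, 95% interval 0.58 to 4.17). Elane and Prtn3 lie within the span of Arhgap45 on the same strand in the file, a gene with 5191 to 9557 counts per library, so how the counting assigned reads there bears on both. Lcn2, the iron-chelator-binding lipocalin of the specific granules, was at 2.096, 5.28 and 3.47 and 10.6, 18.02 and 9.304 CPM (1.80, 95% interval 0.29 to 3.31). Ms4a3, a membrane protein gene of granulocyte and monocyte progenitors, was under 1 CPM in each control (0.185, 0.556 and 0.7398 CPM) and at 2.66, 13.3 and 2.199 CPM in the TAA+celecoxib libraries (3.58, 95% interval 1.36 to 5.80, DESeq2 adjusted p = 0.0326).

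The alpha-defensins, small pore-forming peptides of rat neutrophils, lie in a cluster on chromosome 16. RatNP-3b (chr16:75497832-75530517) was at 10.2, 6.45 and 5.24 CPM in the controls and 39.6, 88.9 and 18.9 in the TAA+celecoxib libraries, a log2 fold change of 2.75 (SE 0.71, 95% interval 1.14 to 4.35, edgeR adjusted p = 0.911). Defa5 was at 11.2, 15.2 and 13.5 and 51.6, 51.1 and 29.7 CPM (1.73, 95% interval 0.56 to 2.90). Np4 was at 11.3, 16.6 and 17.4 and 40.5, 671 and 37.4 CPM (4.05, 95% interval 1.37 to 6.73), with the value of TAA+celecoxib 2 far above its fellows. The defensin genes are similar in sequence and the file has further defensin entries inside their spans, so reads may have been divided among them and each single value is uncertain.

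The remaining tested members did not separate the groups. Cebpe, a transcription factor of granulocyte maturation, was at 0.3699, 3.67 and 1.99 CPM in the controls and 2.15, 3.51 and 1.18 in the TAA+celecoxib libraries (0.17, 95% interval -1.45 to 1.79). Fcnb, the lectin ficolin B, was at 9.62, 51.6 and 54.7 and 17.03, 46.6 and 32.2 CPM (-0.28, 95% interval -1.70 to 1.14). In the TAA libraries Camp was at 27.4, 23.2 and 49.1 CPM and Mpo at 42.3, 49.1 and 207, each also above the 3 controls.

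**Figure D2:**
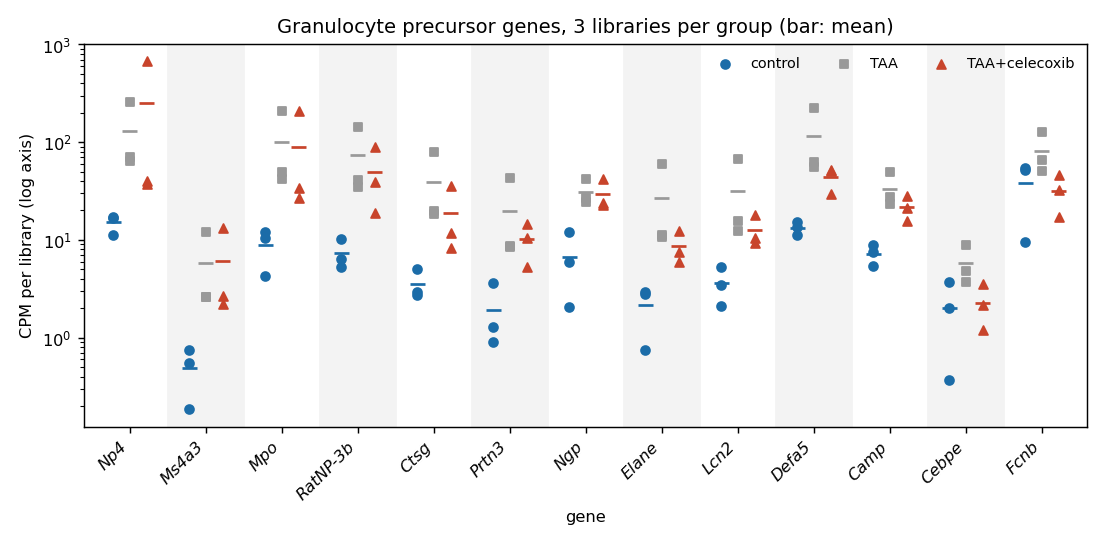
CPM (log axis) of the 13 tested granulocyte precursor genes in each library, with 3 controls (circles), 3 TAA libraries (squares) and 3 TAA+celecoxib libraries (triangles) and the group mean as a bar. From Np4 to Camp every TAA+celecoxib library lies above every control; Cebpe and Fcnb overlap.

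For genes of mature neutrophils the groups overlapped. Of 10 tested, 8 had a higher and 2 a lower fitted value, with a median of 0.56. Between the groups 0 lay apart (9.68% of all genes did), and 0 had an unadjusted edgeR p under 0.05 (5.03% of all genes). With the replicate block in the 6 libraries, 3 of the 10 had an unadjusted edgeR p under 0.05, all higher (4.72% of all genes on that side). Csf3r, the receptor of granulocyte colony-stimulating factor, was at 17.6, 66.99 and 79.6 CPM in the controls and 16.6, 79.3 and 60.7 in the TAA+celecoxib libraries (-0.068, 95% interval -1.56 to 1.42). Mmp8, neutrophil collagenase, was at 4.87, 17.8 and 16.7 and 8.48, 59.8 and 24.2 CPM (1.23, 95% interval -0.95 to 3.40), higher in the treated library of each number. The median of this list turned to -0.19 without TAA+celecoxib 2 and was 0.19 without control 1 and 0.89 without control 2. The difference between precursor and mature genes was not tested. Monocyte genes had a median of 0.01 over 9 tested members, none of which lay apart (9.68% of all genes did).

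The circadian clock genes were another set in which the groups separated, in both directions. In the clock, the proteins of Arntl (Bmal1), Clock and Npas2 pair up and activate genes through E-boxes; the period, cryptochrome and REV-ERB (Nr1d1, Nr1d2) proteins feed back on them, REV-ERB by repressing Arntl through ROR elements; and Dbp and Tef encode activators that bind D-boxes. Of 18 tested clock genes, 6 were higher in every TAA+celecoxib library than in every control and 2 lower, where 5.27% and 4.42% of all genes were. The same 8 had an unadjusted edgeR p under 0.05 (2.96% of all genes on the higher side and 2.07% on the lower), and none passed after adjustment. The list's median was 0.17 (0.04 under a stricter filter on low counts, 0.05 without TAA+celecoxib 3 and 0.27 without control 1 and TAA+celecoxib 1).

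Npas2 (chr9:45901741-46081880) was at 10.2, 8.34 and 9.05 CPM in the controls and 4.56, 2.104 and 3.78 in the TAA+celecoxib libraries, a log2 fold change of -1.40 (SE 0.30, 95% interval -2.08 to -0.72, edgeR adjusted p = 0.911) and a DESeq2 adjusted p of 0.00525. Arntl (chr1:178039063-178137465) was at 24.7, 36.3 and 35.7 and 18.1, 19.01 and 24.4 CPM, a log2 fold change of -0.65 (SE 0.21, 95% interval -1.12 to -0.18, edgeR adjusted p = 0.911). The highest treated value of Arntl lay just under the lowest control. Both encode partners in the activating pair, while Clock itself was at 45.4, 68.4 and 70.6 and 51.3, 68.4 and 66.99 CPM (0.018, 95% interval -0.47 to 0.50).

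The 6 clock genes that lay higher were Nr1d1, Nr1d2, Per2, Per3, Dbp and Tef. Nr1d1 (chr10:86683875-86690815) was at 24.7, 17.7 and 14.3 CPM in the controls and 33.4, 57.02 and 37.6 in the TAA+celecoxib libraries, a log2 fold change of 1.17 (SE 0.25, 95% interval 0.61 to 1.74, edgeR adjusted p = 0.911) and a DESeq2 adjusted p of 0.0185. The 3' end of Nr1d1 overlaps Thra on the opposite strand by 1059 bases, and the strand setting of the counts is not given in the sources used here. Thra, a thyroid hormone receptor gene, was at 27.99, 35.7 and 35.5 and 24.9, 25.04 and 29.8 CPM (-0.32, 95% interval -0.73 to 0.10). Nr1d2 (chr15:8730871-8757165), its paralogue, was at 65.5, 53.8 and 56.9 CPM in the controls and 80.9, 100.3 and 89.03 in the TAA+celecoxib libraries, a log2 fold change of 0.62 (SE 0.13, 95% interval 0.33 to 0.90, edgeR adjusted p = 0.911) and a DESeq2 adjusted p of 0.0291.

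Per3, a period gene, was at 12.8, 20.4 and 17.7 CPM in the controls and 29.3, 36.5 and 24.1 in the TAA+celecoxib libraries (0.82, 95% interval 0.32 to 1.32). Per2 was at 18.4, 22.3 and 17.9 and 22.7, 26.1 and 28.1 CPM (0.39, 95% interval 0.077 to 0.71). Dbp was at 46.1, 36.4 and 36.6 and 77.7, 59.8 and 59.7 CPM (0.73, 95% interval 0.20 to 1.25). Each of these had its lowest treated library above its highest control. Tef, with the smallest fold change of the 8, was at 57.6, 57.7 and 61.5 and 73.8, 74.7 and 76.9 CPM, a log2 fold change of 0.35 (SE 0.09, 95% interval 0.15 to 0.56, edgeR adjusted p = 0.911); its libraries differed so little within each group that they still separated. Per1, by contrast, was at 40.9, 65.9 and 72.8 and 88.99, 36.05 and 44.3 CPM (-0.086, 95% interval -0.92 to 0.75). In the TAA libraries Npas2 was at 2.84, 3.699 and 2.98 CPM and Nr1d1 at 34.7, 40.6 and 38.6, each outside the range of the controls on the same side as the TAA+celecoxib libraries.

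Promoter sequences are shown for 4 of these genes because the clock's binding motifs lie in the window of RefSeq (build GRCr8, up to 250 bases before the start of the gene), with the motif in capitals and up to 30 bases on each side, 5′ to 3′ on the gene's strand.
Nr1d1: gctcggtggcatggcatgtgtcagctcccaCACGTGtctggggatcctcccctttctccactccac
Tef: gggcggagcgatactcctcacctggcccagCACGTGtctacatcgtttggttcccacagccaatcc
Per2: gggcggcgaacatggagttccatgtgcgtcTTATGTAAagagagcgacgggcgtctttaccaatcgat
Bmal1: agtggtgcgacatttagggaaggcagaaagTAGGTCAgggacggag
The window of Nr1d1 is chr10:84229610-84229675 (minus strand) and that of Tef chr7:115206599-115206664 (plus strand), both with the E-box CACGTG, which reads the same on both strands. Per2, at chr9:99497148-99497215 (minus strand), holds the D-box TTATGTAA, searched together with TTACGTAA. Bmal1, the name of Arntl in that table, holds the ROR element TAGGTCA at chr1:176766282-176766327 (plus strand), 16 bases before the start. Of 16 clock genes matched in the table, 5 held the E-box, against 5.59% of 33469 promoters; the other 3 were Ciart, Bhlhe40 and Bhlhe41, whose groups overlapped. The ROR element was held by 1 of the 16, against 2.26% of promoters, and the D-box by 1, against 0.932%. Each motif was searched on both strands, and a match describes letters in the window, not binding.

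**Figure D3:**
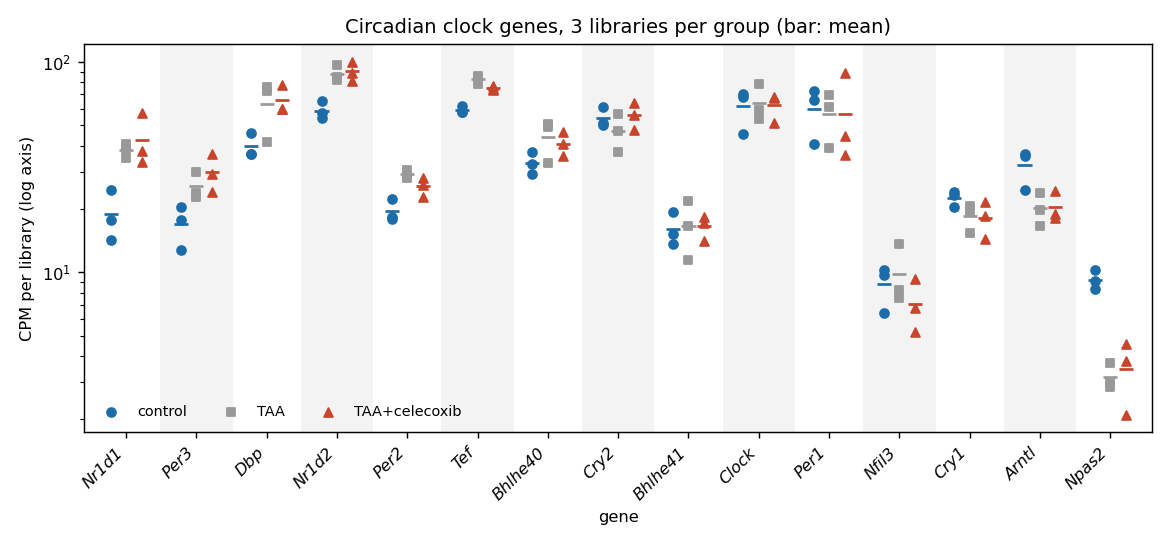
CPM (log axis) of 15 clock genes with a group mean of at least 5 CPM, in each library of the control (circles), TAA (squares) and TAA+celecoxib (triangles) groups, ordered by log2 fold change, with group means as bars. Nr1d1 to Tef lie higher and Arntl and Npas2 lower in every TAA+celecoxib library than in every control; the 7 genes between them overlap.

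Heat shock protein genes had lower fitted values throughout the list. Their products are chaperones that refold damaged proteins, and heat shock factors switch the genes on. All 13 tested had a negative log2 fold change, from -3.62 to -0.08 with a median of -0.39. Of these, 5 had an unadjusted edgeR p under 0.05 (2.07% of all genes on the lower side). With the replicate block in the 6 libraries 1 did (5.24% of all genes on that side). The groups lay apart in 2 (4.42% of all genes on the lower side), and none of the 13 passed after adjustment. Hspa1b, an inducible HSP70 (chr20:4877324-4879779), was at 2.28, 43.2 and 17.6 CPM in the controls and 2.09, 0.842 and 2.14 in the TAA+celecoxib libraries, a log2 fold change of -3.62 (SE 0.89, 95% interval -5.65 to -1.60, edgeR adjusted p = 0.911) and a DESeq2 adjusted p of 0.0044. Control 1 lay beside the treated libraries, and control 2 was the highest. Hspa1b has a near-identical neighbour, Hspa1a, which was not matched in the file, and lies within the spans of 3 class I histocompatibility entries on its strand, so its value is uncertain.

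The co-chaperones repeated the pattern of a high control 2. Dnaja1 was at 162, 418 and 231 CPM in the controls and 168, 127 and 129.6 in the TAA+celecoxib libraries (-0.93, 95% interval -1.69 to -0.17). Hsph1, HSP105, was at 96.9, 341 and 152 and 107, 104 and 80.7 CPM (-1.02, 95% interval -1.94 to -0.092). Dnajb1 was at 101, 192 and 137 and 111, 85.9 and 81.1 CPM (-0.63, 95% interval -1.15 to -0.10). Control 1 was within the treated range in each of these 3. Bag3, a chaperone partner, lay apart, at 36.002, 43.4 and 41.998 and 34.7, 23.5 and 34.2 CPM (-0.39, 95% interval -0.78 to -0.0049). Hspa8, the constitutive member, was at 731, 1501 and 841 and 875, 675 and 634 CPM (-0.49, 95% interval -1.12 to 0.13). The list's median was -0.11 without control 2, -0.59 without control 3, and -0.60 and -0.26 when TAA+celecoxib 1 or 2 was left out.

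The promoters of Hsph1 and Hspa8 are shown because they hold the heat shock element, written here as GAA, TTC and GAA with 2 bases of any kind between them, in capitals, from the same RefSeq table.
Hsph1: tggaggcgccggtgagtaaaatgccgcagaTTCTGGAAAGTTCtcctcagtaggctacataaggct
Hspa8: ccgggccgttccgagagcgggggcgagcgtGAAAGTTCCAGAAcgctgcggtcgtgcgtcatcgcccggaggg
They lie at chr12:10427302-10427367 and chr8:50080271-50080343 (GRCr8, plus strand). The element, searched on both strands, was in 4 of the 11 listed genes matched in the table, Hsph1, Hspa8, Hspd1 and Hspe1, against 0.663% of all promoters. The groups overlapped for each of these 4. Bag3, Dnaja1 and Dnajb1 were matched but did not hold it, and Hspa1b was not matched.

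Related stress genes leaned the same way with smaller values. Of 16 tested genes of the unfolded protein response, which relieves misfolding in the endoplasmic reticulum, 13 had lower fitted values and 2 lay apart on the lower side, where 4.42% of all genes did, with a median of -0.16. Sdf2l1 was at 128, 137 and 102 CPM in the controls and 87.3, 78.97 and 86.6 in the TAA+celecoxib libraries (-0.54, 95% interval -0.99 to -0.085). Ddit3, the stress factor CHOP, was at 22.1, 26.6 and 19.1 and 18.5, 15.4 and 17.3 CPM (-0.41, 95% interval -0.77 to -0.046). Both lay apart on the lower side. Of 16 tested immediate early genes, induced within minutes of a stimulus or of tissue handling, 12 had lower fitted values and 2 lay apart on the lower side (4.42% of all genes), with a median of -0.18. Jun was at 39.1, 97.7 and 108 and 40.8, 36.2 and 55.1 CPM (-0.89, 95% interval -1.69 to -0.091), and Junb at 143, 157 and 125 and 105, 77.1 and 122 CPM (-0.49, 95% interval -0.98 to 0.0038). The unfolded protein median was -0.070 without control 1 and -0.24 without TAA+celecoxib 1. For immediate early genes these medians were -0.055 and -0.30.

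Erythroid genes had the largest median, but the groups overlapped for most of them. Of 24 tested, 23 had a higher fitted value and 18 an unadjusted edgeR p under 0.05 (2.96% of all genes on the higher side), and 4 lay apart on the higher side, where 5.27% of all genes did: Sptb, Ank1, Ermap and Aqp1. None passed after adjustment. With the replicate block in the 6 libraries, 21 of 23 tested had an unadjusted edgeR p under 0.05, all higher (4.72% of all genes on that side). That fit also called none of them. The median log2 fold change was 2.27, against 1.26 without TAA+celecoxib 2 and 3.61 without control 1 and TAA+celecoxib 1. Slc4a1, the anion exchanger of the red cell membrane (chr10:90296141-90312386), was at 255, 82.6 and 12.1 CPM in the controls and 483, 1776 and 214 in the TAA+celecoxib libraries, a log2 fold change of 2.82 (SE 1.23, 95% interval 0.024 to 5.62, edgeR adjusted p = 0.911). TAA+celecoxib 2 was far above the rest, and TAA+celecoxib 3 was below control 1. Tal1, a transcription factor of erythroid precursors, was at 52.6, 38.5 and 20.7 and 112, 247 and 41.7 CPM (1.84, 95% interval 0.29 to 3.39). Ermap, an erythroid membrane protein gene, was at 12.3, 4.28 and 0.455 and 31.5, 116 and 14.2 CPM (3.26, 95% interval 0.51 to 6.003). Alas2, the first enzyme of haem synthesis in red cells, was at 153, 90.8 and 66.4 and 220.3, 669 and 97.3 CPM (1.67, 95% interval 0.014 to 3.32). Hba-a1, an alpha-globin gene, was at 6094, 5286 and 4238 and 9893, 23651 and 5382 CPM (1.32, 95% interval 0.14 to 2.50).

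Within each replicate number the treated library had the higher erythroid score: 5.66, 4.5996 and 3.06 in the controls and 6.403, 7.998 and 5.23 in the TAA+celecoxib group. Other genes shared the high value of TAA+celecoxib 2. Car1 and Car2, carbonic anhydrases abundant in red cells, were at 178, 450.1 and 42.7 and 567, 1117 and 128 CPM in the TAA+celecoxib libraries and 74.04, 53.9 and 11.4 and 259, 102 and 29.6 in the controls (2.27 and 2.21 on the log2 scale). Lgals5, a galectin gene of rat reticulocytes that lay apart, was at 20.9, 38.9 and 21.4 CPM in the controls and 120.1, 227 and 47.03 in the TAA+celecoxib libraries, a log2 fold change of 2.28 (SE 0.61, 95% interval 0.90 to 3.65, edgeR adjusted p = 0.911) and a DESeq2 adjusted p of 0.0314. Alox15, a lipoxygenase also made in reticulocytes, was at 12.6, 13.6 and 17.4 and 25.4, 121 and 18.8 CPM (1.92, 95% interval 0.43 to 3.41). Hk1, the hexokinase of red cells among other cells, was at 58.7, 56.1 and 52.2 and 64.7, 119.8 and 67.6 CPM (0.59, 95% interval 0.065 to 1.12). Gclm, the modifier subunit of the enzyme that starts glutathione synthesis, was at 27.5, 27.1 and 31.4 and 40.003, 108 and 32.4 CPM (1.07, 95% interval 0.0059 to 2.13). The part that the red cell content of a library had in these values was not tested.

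Cell cycle genes had higher fitted values in all 24 tested members, from 0.15 to 1.60 with a median of 0.56. The groups overlapped in 23, and 1 lay apart on the higher side, where 5.27% of all genes did. It was Tyms, thymidylate synthase, at 17.6, 16.1 and 14.7 CPM in the controls and 23.7, 49.02 and 18.1 in the TAA+celecoxib libraries (0.90, 95% interval -0.0038 to 1.81). Mki67, the proliferation marker Ki-67, was at 209, 102 and 89.5 and 289, 764 and 163 CPM (1.60, 95% interval 0.25 to 2.95). Bub1b, a mitotic checkpoint kinase gene, was at 18.99, 12.1 and 13.7 and 24.8, 45.03 and 16.01 CPM (0.94, 95% interval 0.036 to 1.84). Control 1 was the highest control and TAA+celecoxib 2 the highest treated library in each of these 3. The median was 0.27 without TAA+celecoxib 2 and 0.89 without control 1. Of 14 megakaryocyte and platelet genes tested, 11 had higher fitted values, with a median of 0.24. This median was -0.055 without control 1 and 0.54 without TAA+celecoxib 1. On the higher side 2 lay apart, where 5.27% of all genes did. Ppbp, the platelet basic protein, was at 7.21, 20.8 and 19.1 and 24.5, 32.3 and 31.2 CPM (0.90, 95% interval 0.12 to 1.67). Gp9, part of the von Willebrand factor receptor, was at 5.24, 5.89 and 6.94 and 7.91, 8.98 and 10.1 CPM (0.58, 95% interval -0.032 to 1.19).

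**Figure D4:**
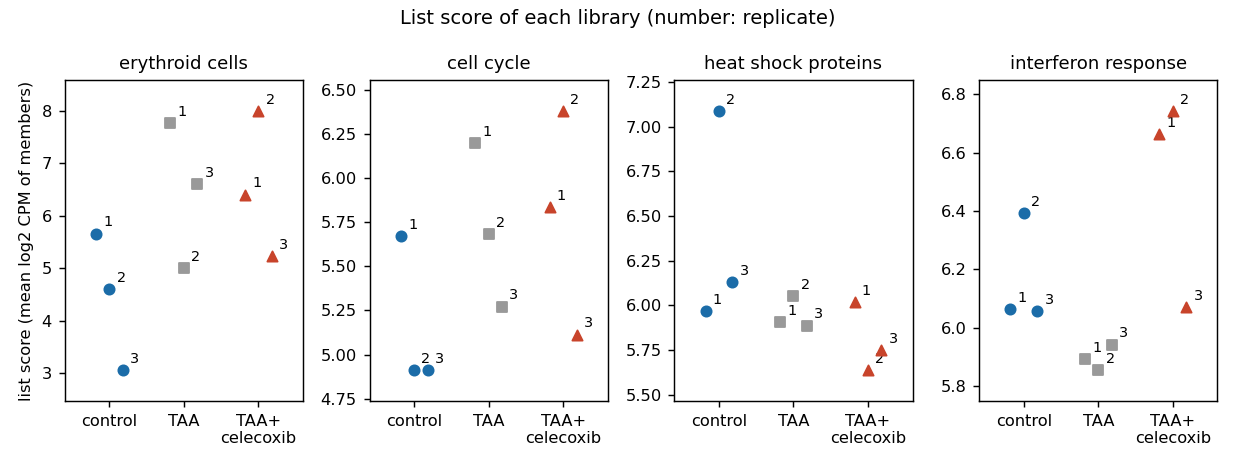
List score (mean log2 CPM of the tested members, y axis, scaled separately in each panel) of each library for 4 lists, with the replicate number beside each point: controls (circles), TAA (squares) and TAA+celecoxib (triangles). TAA+celecoxib 2 has the highest score of the 9 libraries for erythroid cells, the cell cycle and the interferon response, and control 2 for heat shock proteins.

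Lymphocyte genes differed little. The 20 tested T cell genes had a median of -0.05, with 6 higher and 14 lower fitted values. Of their 95% intervals 16 lay between -1 and 1 (63.8% over all genes). Cd3e, a chain of the T cell receptor complex, was at 112, 87.3 and 79.6 CPM in the controls and 124, 63.6 and 101 in the TAA+celecoxib libraries (0.051, 95% interval -0.50 to 0.60). On the lower side 1 gene lay apart (4.42% of all genes). It was Cd5, at 16.2, 10.5 and 9.73 and 9.68, 6.80 and 8.68 CPM (-0.53, 95% interval -1.14 to 0.084). Cd8a, the coreceptor of cytotoxic T cells, was at 79.5, 80.8 and 96.2 and 93.3, 91.7 and 91.3 CPM (0.11, 95% interval -0.22 to 0.44), while the TAA libraries were at 45.04, 55.1 and 38.1 CPM. The 15 tested B cell genes had a median of 0.11, with 14 intervals between -1 and 1. On the higher side 1 of them lay apart, where 5.27% of all genes did. It was Ebf1, a transcription factor of B cell identity, at 33.2, 32.1 and 33.01 and 49.5, 33.3 and 53.6 CPM (0.47, 95% interval 0.091 to 0.85). Plasma cell genes had a median of 0.06 over 10 tested.

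Regulatory and checkpoint T cell genes had a median of 0.00 over 11 tested. Apart lay 1 gene on the higher side (5.27% of all genes) and 1 on the lower (4.42%). Tnfrsf18, the receptor GITR (chr5:173460354-173463140), was at 16.4, 13.5 and 13.2 CPM in the controls and 9.56, 9.89 and 7.67 in the TAA+celecoxib libraries, a log2 fold change of -0.67 (SE 0.18, 95% interval -1.08 to -0.25, edgeR adjusted p = 0.911). Icos, a costimulatory receptor, was at 40.5, 28.7 and 29.4 and 48.2, 41.5 and 48.9 CPM (0.49, 95% interval 0.083 to 0.90). Foxp3, which defines regulatory T cells, overlapped at 9.43, 5.56 and 5.46 and 12.2, 5.33 and 10.2 CPM (0.44, 95% interval -0.36 to 1.24).

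Natural killer and dendritic cell genes leaned lower. Of 14 natural killer and cytotoxic genes tested, 12 had lower fitted values with a median of -0.33, and 1 lay apart on the lower side (4.42% of all genes). That gene was Klrd1, the receptor chain CD94, at 23.1, 25.9 and 32.04 CPM in the controls and 19.1, 21.3 and 20.3 in the TAA+celecoxib libraries (-0.41, 95% interval -0.76 to -0.067). Of 13 dendritic cell genes, 12 had lower fitted values with a median of -0.25, and 2 lay apart on the lower side (4.42% of all genes). Batf3, needed for cross-presenting dendritic cells, was at 26.9, 23.7 and 18.8 and 18.3, 8.98 and 15.1 CPM (-0.71, 95% interval -1.28 to -0.14), and Irf8, a factor of the same lineage, at 856, 835 and 739 and 707, 483 and 688 CPM (-0.37, 95% interval -0.74 to -0.00043). The natural killer median was -0.17 without control 3, and -0.18 and -0.54 when TAA+celecoxib 2 or 3 was left out. The dendritic cell median was -0.44, -0.17 and -0.42 when TAA+celecoxib 1, 2 or 3 was left out.

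Red pulp and marginal zone macrophage genes had a median of -0.03 over 16 tested, 7 higher and 9 lower. On the lower side 1 lay apart, where 4.42% of all genes did. C1qa, a chain of complement C1q made by macrophages (chr5:155261250-155264143), was the member apart, at 733, 1079.8 and 866 CPM in the controls and 459, 547 and 699 in the TAA+celecoxib libraries, a log2 fold change of -0.65 (SE 0.19, 95% interval -1.08 to -0.22, edgeR adjusted p = 0.911). Its TAA libraries were at 959, 966 and 942 CPM, within the range of the controls. Haem breakdown and iron recycling genes had a median of -0.10 over 13 tested, and MHC class II presentation genes of -0.10 over 13. In both lists 0 lay apart, against 9.68% of all genes.

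Matrix and stromal genes had lower fitted values in most members. Of 25 tested collagens and other matrix proteins, 21 were lower with a median of -0.28, and 3 lay apart on the lower side (4.42% of all genes did). At an unadjusted edgeR p under 0.05 were 2, both lower (2.07% of all genes on that side). With the replicate block in the 6 libraries there were 7, all lower (5.24% of all genes on that side). None of the 25 passed after adjustment. Eln, elastin (chr12:24978483-25021863), was at 57.3, 45.8 and 35.2 CPM in the controls and 30.4, 26.4 and 25.3 in the TAA+celecoxib libraries, a log2 fold change of -0.75 (SE 0.26, 95% interval -1.35 to -0.16, edgeR adjusted p = 0.911). Mmp2, a gelatinase that cleaves matrix, overlapped at 18.8, 24.9 and 24.1 and 12.8, 18.9 and 12.7 CPM (-0.61, 95% interval -1.10 to -0.13). Col1a1, a chain of type I collagen, was at 96.05, 189 and 139 and 69.9, 95.9 and 113 CPM (-0.61, 95% interval -1.38 to 0.16), and Dcn, the proteoglycan decorin, at 2.59, 2.84 and 2.85 and 2.09, 1.68 and 2.42 CPM (-0.41, 95% interval -0.93 to 0.11). Dcn was higher in the TAA libraries, at 6.75, 6.58 and 7.31 CPM, than in the other 6. The matrix median was -0.45 without control 1, -0.12 without control 2 and -0.16 without TAA+celecoxib 1.

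Dpt, dermatopontin, a small matrix protein outside that list (chr13:83073544-83102401), had the smallest p of the matrix genes named, at 153, 202 and 124 CPM in the controls and 94.2, 81.7 and 92.2 in the TAA+celecoxib libraries. Its log2 fold change was -0.84 (SE 0.19, 95% interval -1.26 to -0.41, edgeR adjusted p = 0.911), with a DESeq2 adjusted p of 0.0326. All 12 smooth muscle and contractile genes had lower fitted values, from -0.68 to -0.05 with a median of -0.26 (-0.14 without control 1), and none lay apart (9.68% of all genes did). Cnn1, calponin, was at 26.6, 14.01 and 11.7 and 10.7, 13.5 and 8.402 CPM (-0.68, 95% interval -1.40 to 0.04). Endothelial genes had a median of -0.15 over 14 tested, and 1 lay apart on the lower side, where 4.42% of all genes did. It was Egfl7, a secreted vessel protein gene, at 47.3, 40.4 and 44.6 and 35.1, 24.6 and 32.9 CPM (-0.51, 95% interval -0.89 to -0.13). The 16 TGF-beta ligands, receptors and targets had a median of -0.03. Of their intervals 13 lay between -1 and 1 (63.8% over all genes), and 1 gene lay apart on the lower side (4.42% of all genes). Tgfbr1, a TGF-beta receptor kinase, lay apart at 75.8, 77.8 and 83.7 and 66.3, 65.6 and 65.9 CPM (-0.26, 95% interval -0.47 to -0.051).

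Interferon response genes had higher fitted values in 24 of 25 tested members, with a median of 0.32. Apart lay 1 higher member (5.27% of all genes) and 1 lower member (4.42%). At an unadjusted edgeR p under 0.05 were 3 higher (2.96% of all genes) and 1 lower (2.07%). With the replicate block in the 6 libraries these were 7 (4.72%) and 1 (5.24%). None passed after adjustment. Oasl, an antiviral protein related to the oligoadenylate synthetases, was at 37.4, 43.3 and 34.5 CPM in the controls and 62.4, 65.3 and 46.1 in the TAA+celecoxib libraries (0.59, 95% interval 0.13 to 1.05). Bst2, tetherin, was the lower one, at 125, 215 and 134 and 102, 78.8 and 101 CPM (-0.75, 95% interval -1.23 to -0.26). Rsad2, viperin, overlapped at 76.6, 50.7 and 31.7 and 142, 379 and 57.5 CPM (1.86, 95% interval 0.28 to 3.45). The median was 0.11 without TAA+celecoxib 1, 0.54 without TAA+celecoxib 3, and 0.10 without control 1 and TAA+celecoxib 1. Inflammatory cytokine and chemokine genes had a median of -0.11 over 15 tested, and 1 lay apart on the lower side, where 4.42% of all genes did. It was Nfkbia, an inhibitor of NF-kappa-B, at 185, 202 and 158 and 158, 98.05 and 136 CPM (-0.48, 95% interval -0.92 to -0.03).

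Genes of the pathway that celecoxib acts on had fitted values near those of the controls. Of 17 tested cyclooxygenase, prostanoid enzyme and receptor genes, 9 had higher and 8 lower fitted values, from -0.44 to 0.21 with a median of 0.02. Of the 17, 0 lay apart (9.68% of all genes did) and 0 had an unadjusted edgeR p under 0.05 (5.03% of all genes). Their intervals lay between -1 and 1 in 10 of 17, against 63.8% of all genes. Ptgs2, the enzyme celecoxib inhibits (chr13:67351087-67359335), was near 1 CPM in each library, at 1.17, 0.8895 and 1.08 CPM in the controls and 1.65, 0.771 and 1.18 in the TAA+celecoxib libraries (0.20, 95% interval -0.72 to 1.12). Ptgs1, the constitutive cyclooxygenase (chr3:15560712-15582344), was at 29.6, 39.9 and 41.998 and 27.4, 42.6 and 36.8 CPM (-0.063, 95% interval -0.59 to 0.46). Ptges3, a prostaglandin E synthase and HSP90 cochaperone, was at 243, 296 and 219 and 244, 199 and 189.6 CPM (-0.26), and Tbxa2r, the thromboxane receptor, at 8.51, 14.6 and 16.4 and 8.42, 9.19 and 11.6 CPM (-0.44). Of the cholesterol and fatty acid synthesis genes, all 18 tested had intervals between -1 and 1 (63.8% of all genes had), with a median of 0.10. Lipoxygenase and leukotriene genes had a median of 0.18 over 9 tested, NRF2 targets and antioxidants of 0.15 over 14, carbonic anhydrases of 0.035 over 10, glycolysis of -0.06 over 16, white pulp stroma of -0.10 over 11, and mast cells, basophils and eosinophils of -0.015 over 11.

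Among entries with a gene symbol and a mean of at least 1 CPM, the 12 on each side with the smallest p whose groups lay apart include Nr1d2, Nr1d1, Tef, Camp, Ngp and RatNP-3b on the higher side and Npas2 and Dpt on the lower. Others with a known function were Pml, a nuclear body protein gene, at 77.3, 99.2 and 95.3 CPM in the controls and 122, 131 and 125 in the TAA+celecoxib libraries (0.48, 95% interval 0.21 to 0.74), and Pls1, an actin-bundling plastin, at 4.32, 4.61 and 3.98 and 8.36, 9.47 and 6.43 CPM (0.91, 95% interval 0.43 to 1.39). On the lower side, Jaml, a junctional adhesion molecule of leukocytes, was at 87.97, 82.8 and 85.6 and 62.9, 54.7 and 68.3 CPM (-0.46, 95% interval -0.70 to -0.22, DESeq2 adjusted p = 0.0269). Cyp2d3, a cytochrome P450, was at 9.43, 11.2 and 10.8 and 5.44, 5.05 and 4.68 CPM (-1.05, 95% interval -1.59 to -0.51, DESeq2 adjusted p = 0.0362). For Jaml and Cyp2d3 the gap between the groups was wider than the spread within either. Rab13, a small GTPase gene, was at 28.4, 32.2 and 31.6 and 17.5, 19.99 and 23.4 CPM (-0.60), Prickle4, a planar polarity gene, at 12.1, 11.95 and 14.7 and 6.33, 7.78 and 8.63 CPM (-0.77), and Abhd8, a hydrolase family gene, at 31.1, 28.9 and 30.2 and 18.6, 18.7 and 23.96 CPM (-0.56).

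Less described entries completed these 24. LOC108348048, annotated as a von Willebrand factor A domain protein, was at 6.103, 3.56 and 1.93 CPM in the controls and 12.2, 19.4 and 11.7 in the TAA+celecoxib libraries (1.90, 95% interval 0.99 to 2.82). AABR07060952.1, an undescribed protein-coding entry (chr4:101639641-101640459), was at 9.19, 10.6 and 10.6 and 27.5, 30.6 and 16.7 CPM (1.30, 95% interval 0.74 to 1.86). AABR07017846.1, a long intergenic RNA, was at 2.84, 2.78 and 2.28 and 6.08, 6.73 and 5.98 CPM (1.25), and RGD1564664, an undescribed protein-coding gene, at 21.6, 14.7 and 17.8 and 8.67, 3.72 and 7.84 CPM (-1.41). Among the 27 genes that DESeq2 called, Dpp7, a lysosomal dipeptidyl peptidase gene, was at 124, 125 and 107 CPM in the controls and 94.3, 87.2 and 87.9 in the TAA+celecoxib libraries (DESeq2 adjusted p = 0.0291). AABR07065768.1, also called by DESeq2, was at 0 in the 3 controls and at 0, 36.5 and 0.0564 CPM in the TAA+celecoxib libraries, so that call rested on TAA+celecoxib 2. The same held for AABR07065772.4, at 5.47 CPM in TAA+celecoxib 2 and 0 in the other 5 libraries, and for an entry without a symbol, at 6.80 CPM there and 0 in the others. DESeq2 also called 2 entries without a symbol whose groups lay apart. One was at 187, 213 and 158 CPM in the controls and 128, 109 and 104 in the TAA+celecoxib libraries, and the other at 7.52, 6.67 and 9.28 and 17.1, 14.3 and 19.7. Their edgeR p-values were smaller than those of most of the 24. These entries, Dpp7 and AABR07065768.1 were named after their values were seen.

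**Figure D5:**
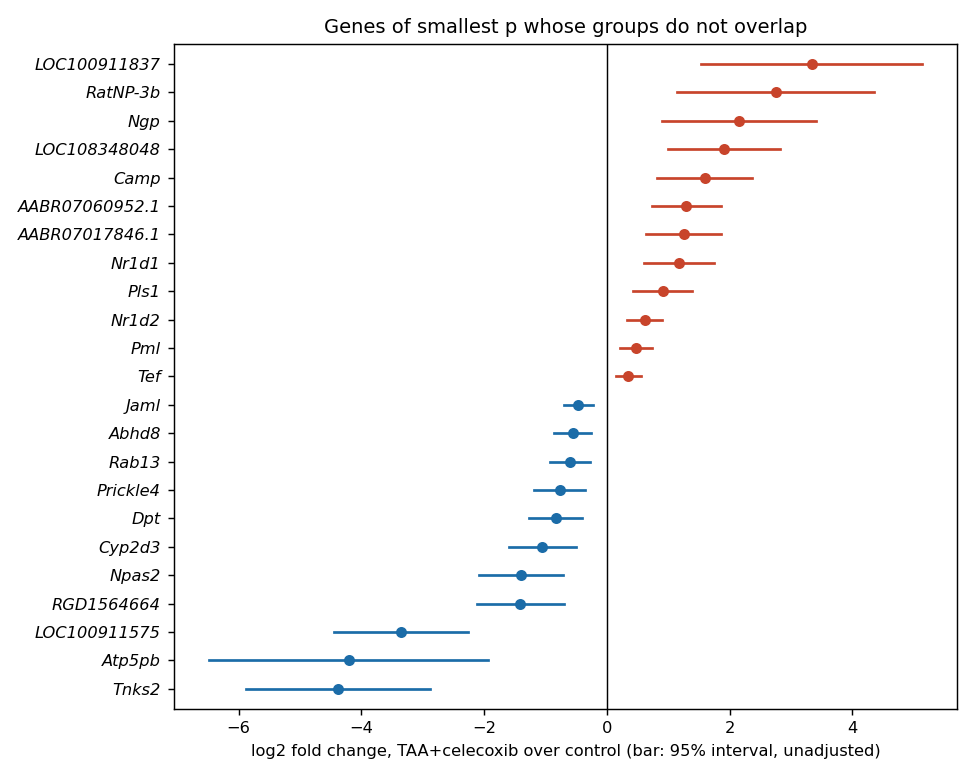
Log2 fold change of TAA+celecoxib over control (points) with its unadjusted 95% interval (bars) from edgeR for 23 of the 24 entries with a gene symbol and a mean of at least 1 CPM that have the smallest p on each side among those whose groups do not overlap; Rpl35al1, near 0 in the treated group, is left out. Each interval excludes 0, and no gene passed after adjustment.

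The 3 smallest p-values of the comparison belonged to entries with copies elsewhere in the file. LOC100911575, a 60S acidic ribosomal protein P2-like gene (chr1:214428526-214430515), was at 178, 144 and 285 CPM in the controls and 28.3, 7.57 and 23.6 in the TAA+celecoxib libraries, a log2 fold change of -3.35 (SE 0.48, 95% interval -4.44 to -2.26, edgeR adjusted p = 0.566). Summed with its 3 copies LOC498555, LOC100362751 and Rplp2, it came to 552, 352 and 516 CPM in the controls and 522, 190.1 and 274 in the TAA+celecoxib libraries, where the groups overlapped. Tnks2, tankyrase 2, at its chromosome 1 entry (chr1:255479261-255532143) had 237, 143 and 304 counts in the controls and 3, 14 and 13 in the TAA+celecoxib libraries. A second Tnks2 entry on an unplaced scaffold had 153, 20 and 18 and 112, 124 and 19 counts, and the sum of the entries was 24.04, 9.06 and 18.3 CPM in the controls and 7.28, 9.68 and 1.804 in the TAA+celecoxib libraries, which overlapped. The copies were chosen after the values were seen.

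Rpl35al1, a ribosomal protein L35a-like gene (chr12:7424258-7424658), had 320, 369 and 220 counts in the controls and 0, 0 and 1 in the TAA+celecoxib libraries, and 2, 48 and 121 in the TAA libraries. It was the gene called with the 6 libraries alone (edgeR adjusted p = 0.0269), and with the replicate block in those libraries it was not called (edgeR adjusted p = 0.0682). Its sum with 3 copies (a second Rpl35al1 entry, Rpl35a and LOC108349682) was 54.4, 47.9 and 34.4 CPM in the controls and 22.5, 7.43 and 12.9 in the TAA+celecoxib libraries, which did not overlap. LOC100911837, a HIRA-like gene, was at 0.986, 0.334 and 0.797 CPM in the controls and 11.5, 3.296 and 6.65 in the TAA+celecoxib libraries, a log2 fold change of 3.34 (SE 0.79, 95% interval 1.54 to 5.13, edgeR adjusted p = 0.911). With Hira it summed to 4.56, 8.28 and 5.12 and 15.2, 7.36 and 10.1 CPM, which overlapped. Atp5pb, a subunit of ATP synthase, was at 37.7, 1.22 and 13.5 and 0.949, 0.842 and 1.01 CPM (-4.21, 95% interval -6.48 to -1.93), with control 2 close to the treated libraries and control 1 the highest. For the 4 genes with copies, reads may have been assigned to a copy rather than to the gene, and a difference in the gene's own expression cannot be told apart from that.

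Genes of neighbouring tissues were read as lists too. Of 15 hepatocyte genes 3 were tested, and Alb, albumin, was at 89.02, 0 and 0.0569 CPM in the controls and 0, 0.701 and 0.0564 in the TAA+celecoxib libraries, so control 1 carried it. Of the defining pancreatic genes, Prss1, trypsin, was at most 1.08 CPM in the 6 libraries, and of the adipocyte genes Plin1 and Lep were at 0 counts in each of them, while the summed level of the adipocyte list was 744, 1365 and 1259 CPM in the controls and 654, 1037 and 1009.8 in the TAA+celecoxib libraries, much of it from Cfd (183 to 589 CPM) and Fabp4 (57.3 to 293 CPM). The summed hepatocyte list was 125 CPM in control 1 and 0.677 to 1.82 in the other 5. Pancreatic genes had a median of -0.074 and adipocyte genes of -0.22, each over 5 tested, and hepatocyte genes of -2.11 (3.32 without control 1 and TAA+celecoxib 1, 2.75 without control 1). Mesothelial genes had a median of -0.18 over 8 tested, and Msln, mesothelin, was at 92.5, 91.3 and 54.6 and 158, 93.1 and 51.4 CPM. Their part in the results was not tested.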

How the data were processed

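RNA from rat spleen was sequenced in 9 libraries, 3 per group as the labels name them. Values are the read counts of each gene that the authors deposited, not normalized. The submitters' processing notes name HISAT2 2.0.5 as tool and mRatBN7.2 as build. How reads were counted, with which annotation and strandedness, is not given in the sources used here. Coordinates of genes are those of the deposited file, whose build is unresolved because its scaffold names are not those of mRatBN7.2. The deposited FPKM values were not used.

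The main test was edgeR 4.0.16 (R 4.3.3), with TMM normalization, the filterByExpr filter (minimum count 10, total 15) and a quasi-likelihood model of the 3 groups over all 9 libraries, so that the TAA libraries shared the estimate of spread. The contrast was TAA+celecoxib minus control, 2-sided, with Benjamini-Hochberg adjustment over 15954 genes and a threshold of 0.05. An exact permutation test of 3 against 3 libraries cannot go below p = 0.1. CPM used TMM library sizes, and 95% intervals are unadjusted. List scores used log2 CPM with a prior count of 2. The fits were tested on simulated data. Alternatives were DESeq2 1.42.0 (51 adjusted p-values NA), limma-voom 3.58.1, other scalings and filters, the 6 libraries alone, a replicate block, control 1 and TAA+celecoxib 1 both left out, and each library left out.

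The labels number the replicates alike in each group. Deviations from the group means correlated at 0.47, 0.18 and 0.34 between the control and TAA+celecoxib libraries of the same number, and from -0.40 to 0.13 between those of different number. Each same-number correlation was over 0.1, but so was that of control 3 with TAA+celecoxib 2 (0.13). The numbers may pair the libraries, but these values do not settle it and the design does not say. The main test has no replicate term, and the pairing entered only as an alternative. No pair of libraries within a group agreed within counting noise (chi-square per degree of freedom 17.5 to 122).

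Gene lists (37, with 585 entries, 562 in the file and 516 tested) and the comparison itself were chosen with earlier results of these data known. Genes named are the 12 of smallest p on each side with a gene symbol, a mean of at least 1 CPM and groups that do not overlap, an anchor and the 2 members of smallest p per list, Ptgs1, Ptgs2, and up to 6 DESeq2 calls per side. The anchors and members not printed are described by their list's counts. Other named genes were chosen after their values were seen: Np4, Elane, Ctsg, Prtn3, Lcn2, Defa5, Cebpe, Fcnb, Per2, Per3, Dbp, Clock, Per1, Thra, Slc4a1, Sptb, Ank1, Aqp1, Hba-a1, Alas2, Tyms, Dnajb1, Hsph1, Bag3, Hspa8, Dcn, Cd8a, Rsad2, Spic and the copies. Promoters come from the RefSeq table of GRCr8.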

Additional observations from a re-analysis of the deposited data

How the results depend on the processing

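The count of genes past the adjusted threshold was 0 in edgeR and in every alternative but 3: DESeq2 (27), the 6 libraries alone (1) and the fit without TAA 1 (2). Leaving out each of the 9 libraries in turn gave 0 to 2 calls and 350 to 1303 genes at an unadjusted p under 0.05. With the replicate block in the 6 libraries that count was 1545, and the blocked edgeR fit called 0 genes (smallest adjusted p 0.0682). Rpl35al1, called with the 6 libraries alone, was that gene, so the block ended its call. The cause of these differences was not tested.

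Genes whose groups overlap and whose fitted value was near 0 changed sign under some settings, and their direction is not given by these data. Clock was -0.00080 with upper quartile scaling and -0.16 to 0.14 over the libraries left out in turn, and with control 1 and TAA+celecoxib 1 both left out -0.044. With that pair left out Cebpe was -0.29, Cd3e -0.029 and Ptgs2 -0.011. Over the libraries left out in turn, Cebpe ranged from -0.32 to 0.93, Cd3e from -0.18 to 0.28, Ptgs2 from -0.091 to 0.43, Ptgs1 from -0.21 to 0.095, Csf3r from -0.50 to 0.35, Fcnb from -0.74 to 0.058 and Per1 from -0.58 to 0.15.

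Depth limits the genes near 1 CPM, such as Ptgs2 and Ms4a3, where 1 count is worth 0.0556 to 0.0701 CPM in the 6 libraries. The biological coefficient of variation between libraries was 0.311 with 3 libraries a group.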

Other observations

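Some listed genes differed widely between libraries of a group. Ifit1, an interferon-induced gene, was at 0.185, 2.45 and 23.8 CPM in the controls and 0.253, 123 and 2.65 in the TAA+celecoxib libraries. The eosinophil granule genes Epx and Prg2 were at 1.01, 19.9 and 0.959 and 3.67, 34.1 and 2.09 CPM in the TAA+celecoxib libraries, and 0.432, 1.22 and 3.36 and 2.03, 2.84 and 7.51 in the controls. RT1-DMb, a chain of the class II peptide exchanger, was at 2.96, 0.5004 and 1.195 CPM in the controls and 0.633, 19.8 and 15.9 in the TAA+celecoxib libraries (2.97, 95% interval 0.64 to 5.30). Adgre1, the macrophage receptor F4/80, was at 29.3, 44.2 and 50.4 and 22.9, 132 and 95.2 CPM (1.01, 95% interval -0.28 to 2.30), so replicates 2 and 3 of the treated group lay above the controls and replicate 1 below them. LOC103689983, the gene called beside Rpl35al1 without TAA 1, was at 11.96, 12.95 and 6.26 CPM in the controls and 0.443, 0.561 and 0.226 in the TAA+celecoxib libraries. These genes were named after their values were seen.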
